A study of Mus musculus with 24 samples.

Results

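The highest dose step of interferon (IFN) epsilon was examined in ID8 cells, from 100 to 1000 IU/ml: the 3 samples at 1000 IU/ml were set against the 3 samples at 100 IU/ml with the same replicate numbers, 6 of the series' 24 arrays. The question was which genes differed little between these doses and which were still higher at 1000 IU/ml. ID8 is a mouse ovarian cancer line that arose from surface epithelial cells in culture, so all samples come from 1 line. Both groups received recombinant mouse IFN epsilon for 3 h and differ in dose. Untreated cells received the vehicle (phosphate-buffered saline), and other wells received the lowest IFN epsilon dose, 10 IU/ml, or 1 of the same 3 doses of IFN beta, also for 3 h. Each replicate number marks a separate date, and wells of a treatment were pooled before the array, so a sample is 1 pool on 1 date.

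Type I interferons bind the receptor chains Ifnar1 and Ifnar2, and the kinases Jak1 and Tyk2 then activate the complex ISGF3, which contains Stat2 and Irf9 and binds interferon-stimulated response elements (ISREs) in the promoters of antiviral genes. IFN epsilon is a type I interferon that the epithelium of the female reproductive tract makes without infection, and its activity is given in international units (IU). A second wave of transcription factors that interferon itself induces, among them Irf1, Irf7 and Batf2, acts on further genes such as guanylate-binding proteins, chemokines and antigen presentation genes.

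Because response elements are where the pathway reaches its targets, 4 promoters are shown: Bst2 and Mitd1, whose step met the rule for a plateau given below, and Gbp5 and Rsad2, which were at least 2-fold higher at 1000 IU/ml on every date. Each is the 250 bases before the annotated start, from RefSeq on GRCm38.p6, 5′ to 3′ on the strand of the gene, and capitals mark matches to the ISRE core GAAANNGAAA on either strand. Bst2 lies at chr8:71537473-71537722 on the minus strand, Mitd1 at chr1:37890412-37890661 on the minus strand, Gbp5 at chr3:142496684-142496933 on the plus strand and Rsad2 at chr12:26456453-26456702 on the minus strand.
Bst2: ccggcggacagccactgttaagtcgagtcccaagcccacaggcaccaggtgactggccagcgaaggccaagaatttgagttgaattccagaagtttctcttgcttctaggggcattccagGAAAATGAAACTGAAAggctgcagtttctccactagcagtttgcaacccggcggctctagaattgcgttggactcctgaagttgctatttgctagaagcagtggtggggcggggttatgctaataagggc
Mitd1: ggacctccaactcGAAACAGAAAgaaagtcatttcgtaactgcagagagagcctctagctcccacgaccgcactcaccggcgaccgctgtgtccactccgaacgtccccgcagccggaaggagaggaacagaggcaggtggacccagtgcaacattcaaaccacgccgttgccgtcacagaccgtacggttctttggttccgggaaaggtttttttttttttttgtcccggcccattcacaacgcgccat
Gbp5: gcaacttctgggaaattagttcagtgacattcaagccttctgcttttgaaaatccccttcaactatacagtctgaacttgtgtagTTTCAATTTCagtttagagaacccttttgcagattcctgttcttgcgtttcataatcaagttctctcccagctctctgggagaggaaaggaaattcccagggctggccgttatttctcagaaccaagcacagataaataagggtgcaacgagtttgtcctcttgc
Rsad2: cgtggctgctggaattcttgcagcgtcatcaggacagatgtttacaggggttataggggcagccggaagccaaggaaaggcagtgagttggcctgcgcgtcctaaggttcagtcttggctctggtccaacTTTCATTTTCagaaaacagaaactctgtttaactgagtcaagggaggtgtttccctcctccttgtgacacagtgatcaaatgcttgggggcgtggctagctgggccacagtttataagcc
The 2 matches in Bst2 overlap, and the first begins 130 bases before the start. The match begins 237 bases before the start in Mitd1, 165 in Gbp5 and 120 in Rsad2. A match is a description of the letters and not a measured binding site.

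The motif was counted in all promoters of this length. RefSeq windows were matched for 11420 of the 14424 genes tested, and 371 of their 14486 promoters (2.56%) held the ISRE core. Among genes called higher at 1000 IU/ml IFN beta it stood in 68 of 408 promoters (16.7%). Within those genes it stood in 6 of 93 promoters (6.45%) of genes that met the plateau rule, and in 6 of 27 (22.2%) of genes at least 2-fold higher on each date. The core TTCNNNGAA of the gamma-activated site stood in 867 promoters of all genes tested (5.99%), in 33 of the 408 (8.09%), in 8.6% of the plateau genes' promoters and in 11.1% of those of the 2-fold genes. These shares rest on few promoters and were not tested.

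Of the 6 arrays, 5 had between 52.4% and 55.1% of probes well above background. The array of 1000 IU/ml on the third date stood apart at 58.8%, where the other arrays of that date lay between 49.6% and 52.4%. On that date 948 genes were over 2-fold higher at 1000 than at 100 IU/ml, and 598 of them missed the limit for well above background on at least 1 of the 3 arrays at 100 IU/ml. The first date had 507 such genes and the second 174. The main counts are therefore also given without it, and list values for the first and second date alone follow the lists. Of the markers of the labelled cell type, 13 of 15 ovarian surface epithelial genes with a probe were well above background on all 6 arrays, among them Krt8, Krt18, Wt1 and Msln. Of 21 leukocyte markers 7 were so on all 6 arrays (Cd3e, Cd4, Itgam, Csf1r, Cd68, Cd14 and Trem1) and 13, including Ptprc, Adgre1, Lyz2 and Cd8a, on 0. The summed linear level of that list spanned 4.16 to 5.97 at 100 IU/ml and 4.25 to 5.24 at 1000 IU/ml. Among endothelial, fibroblast and adipocyte markers 11 of 18 were above background on all 6 arrays, Pecam1, Kdr, Col1a1, Dcn and Pdgfrb among them, with Cdh5, Tek and Vwf on 0. The part of such cells in the results was not tested.

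Values are log2 of an array's signal relative to its own 75th percentile, and the step is the value at 1000 minus that at 100 IU/ml on the same date, with its SE from limma. The threshold for a call was 0.05 for the p adjusted by Benjamini-Hochberg over all 14424 genes, and n is 3 against 3 for the step. By this test 3 genes rose from 100 to 1000 IU/ml (0.0208%) and 0 fell (0%), while 1727 had an unadjusted p under 0.05. Of these 1152 were higher (7.99%) and 575 lower. The adjusted test thus left nearly every interferon gene undecided, and the values on each date carry most of what follows.

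Of the 3 called genes, Slc16a9 was also called higher at 1000 IU/ml IFN beta, and Angptl8 and Tex19.1 were not. Angptl8, a secreted regulator of lipoprotein lipase, had log2 values of -2.31, -2.56 and -2.62 at 100 IU/ml and -1.69, -1.84 and -1.58 at 1000 IU/ml. All samples at 1000 IU/ml lay above all at 100 IU/ml, and the step was 0.79 ± 0.10 (1.73-fold, limma adjusted p = 0.0385). Slc16a9, a monocarboxylate transporter family member, was at -3.50, -2.80 and -3.77 and then at -2.64, -2.18 and -3.08, a step of 0.72 ± 0.09 (adjusted p = 0.0385). Its groups overlapped, and every date moved up. Tex19.1, a germline gene that restrains transposable elements, was at -1.99, -1.93 and -2.58 and then at -1.36, -1.36 and -2.27, a step of 0.50 ± 0.07 (adjusted p = 0.0469), with overlapping groups. Few fits kept these calls: over 9 fits that left out a sample or a date, limma's adjusted p reached 0.607 for Angptl8, 0.607 for Slc16a9 and 0.76 for Tex19.1, and 2, 0 and 2 of the fits kept the call. Without the date block limma called 0 genes, with 431 at an unadjusted p under 0.05. A fit without the third date called 48 genes, 45 higher and 3 lower, and Ctss, Cxcl9, Gbp4, Ly6a, Slfn5, Psmb9 and Tap2 were among the higher. Of those named, Ctss, Cxcl9 and Slfn5 passed the filter on dim probes only through 1000 IU/ml IFN epsilon, where they are high. Their rise is partly fixed by that filter, which is described below.

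Interferon targets were not chosen on the step itself. Instead, the 403 genes called higher at 1000 IU/ml IFN beta against untreated cells (2.79% of genes tested) were used. Those arrays are not part of the step. The choice is still not wholly independent of it, since spread, date effects and the filter on dim probes came from all groups. The 403 were chosen with date as a block, and 228 were called without it. A fit to only the untreated and 1000 IU/ml IFN beta samples, with the block, called 14. Of the 403, 346 were higher at 1000 than at 100 IU/ml IFN epsilon on all 3 dates (85.9%), against 17.6% of all genes tested. Their median step was 0.49, against 0.01 over all genes. On the 3 dates in order the median was 0.72, 0.49 and 0.32, against -0.03, 0.05 and 0.01 over all genes. The dates thus differed in size and not in direction. Without the 1000 IU/ml sample of the third date the median was 0.62, over 406 genes that this fit called for IFN beta, and over all fits that left out a sample or a date it lay between 0.44 and 0.70.

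**Figure D1:**
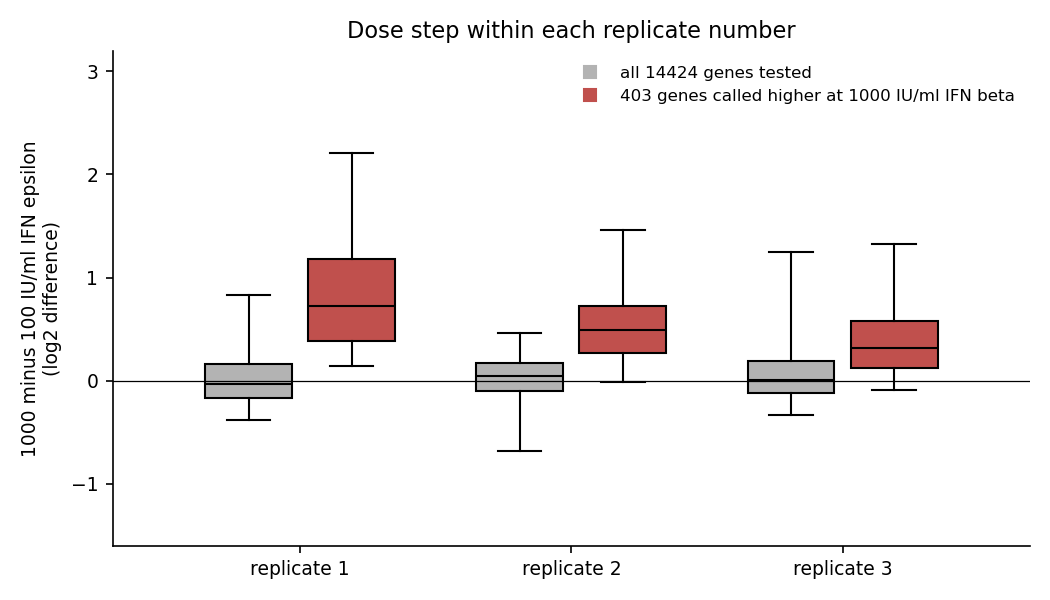
The vertical axis is the log2 difference of 1000 minus 100 IU/ml IFN epsilon within each replicate number (date); grey boxes are all 14424 genes tested and red boxes the 403 genes called higher at 1000 IU/ml IFN beta, with the median as a line, the quartiles as box ends and whiskers from the 5th to the 95th percentile. The red medians are 0.72, 0.49 and 0.32 on the 3 dates, while the grey medians lie between -0.03 and 0.05.

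Slides were a second batch. On the slide that held 100 IU/ml of the second and of the third date and 1000 IU/ml of the third date, the median difference of the 403 genes was 0.34. On the slide that held 100 IU/ml of the first date and 1000 IU/ml of the second it was 0.86. The last slide held only the 1000 IU/ml sample of the first date. With slide and date as blocks the median step of the 403 genes was 0.46, and limma called 5 genes in all.

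Scaling mattered for the level of the whole array. When arrays were scaled on their median instead of the 75th percentile, the median step of all genes moved from 0.01 to -0.35, and to -1.1 on the third date. List medians are therefore read relative to all genes. Relative to that median, the 403 genes were at 0.49 under scaling on the 75th percentile. Scaling on the median gives the same relative value by construction, since both shift all genes of an array alike. The relative value was 0.49 under scaling by quantiles and 0.40 with another background correction (normexp). It was 0.46 in the authors' deposited table of processed values. Without that reference, scaling on the median gave the 403 genes a median of 0.13, of -0.79 on the third date, and 36 of them were higher on all 3 dates.

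Few interferon targets had a step that could be bounded within 1.5-fold. Plateau is used here for a gene whose 95% confidence interval of the step lay within 1.5-fold in both directions, which bounds the size of the step and does not show that it was 0. That held for 10784 of all genes (74.8%), most of which do not respond, and for 80 of the 403 (19.9%). In 21 of the 80 the interval lay wholly above 0, and 49 of the 80 were higher on all 3 dates. Of the remainder 1 was called higher and 322 were undecided. The rule favours genes with a small response, whose interval is narrow: the half-width of the interval had a median of 0.24 over all genes and 0.47 over the 403. Of the 281 genes that IFN beta raised at least 2-fold, 7 met the rule.

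The plateau genes with the largest IFN beta response are described next. A high share of their IFN epsilon response at 100 IU/ml follows largely from this choice, since their step was bounded and their interferon response large. Sp100, a nuclear body protein, was at 0.43, 0.60 and 1.1 at 100 IU/ml and at 0.87, 0.82 and 0.72 at 1000 IU/ml. The groups overlapped, and the step was 0.09 (95% interval -0.26 to 0.44) after a rise of 2.26 from untreated cells to 100 IU/ml (adjusted p = 4.9e-06). Bst2 (tetherin), which holds budding virions at the membrane, was at 5.57, 5.19 and 5.66 and then at 5.79, 5.58 and 5.56. Its step was 0.17 (-0.15 to 0.50), and 92.3% ± 11.8 (SD of 3 dates) of its log2 response at 1000 IU/ml was present at 100 IU/ml. Mitd1, a protein of cell abscission, was at 2.43, 2.75 and 3.05 and then at 2.77, 2.77 and 2.89, with 96.0% ± 15.2 of the log2 response present. Ifitm7, of the family of interferon-induced transmembrane proteins, was at 5.04, 4.83 and 5.29 and then at 5.29, 4.98 and 5.03, a step of 0.05 (-0.29 to 0.39). Irf9, the DNA-binding part of ISGF3, was at 3.24, 3.42 and 3.72 and then at 3.56, 3.73 and 3.65, a step of 0.19 (-0.13 to 0.51). Shisa5, Adra1b, Nlgn2, Naa20 and Cmtr1 complete the 10 plateau genes with the largest IFN beta response, with steps from -0.01 (Adra1b) to 0.27 (Shisa5).

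The plateau group kept its members under other normalizations and not under every block. Of the 80 genes, 78 met the rule under all 3 of quantile normalization, normexp background and the authors' deposited table, 77 with slide and date as blocks, 54 without the 1000 IU/ml sample of the third date, and 43 without the date block. Mitd1, Ifitm7 and Adra1b met it in all 7 of the settings compared, whereas Irf9, Bst2 and Sp100 did not meet it without the 1000 IU/ml sample of the third date. Under scaling on the median, which shifts all steps, 0 of the 245 genes called for IFN beta met the rule. Fits without the first, the second or the third date called fewer genes for IFN beta. Of these, 15 of 199, 10 of 101 and 25 of 225 met the rule.

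At the other end were genes at least 2-fold higher at 1000 IU/ml on each of the 3 dates, a description chosen after the values were seen. There were 61 such genes of all tested (0.423%), and 1 was at least 2-fold lower on each date (0.00693%). Of the 61, 29 were among the 403 genes (7.2% of those). The limma test called 0 of the 61, with adjusted p between 0.134 and 0.453. Of the 61, 27 were well above background on all 3 arrays at 100 IU/ml, 11 on 1 or 2 and 23 on 0, so the steps of the last are against values at background. On untreated arrays 14 of those 23 were on 0 too. The filter kept a probe well above background in 2 or more samples of any group. Some of the 61 therefore entered only through 1000 IU/ml IFN epsilon, where they are high. Arhgef38, A930009A15Rik, Sftpd and Tm6sf1 were above background there and on 0 arrays of every other group. Ctss, Cxcl9, Slfn5, Ifi209, Klrk1 and Hcar2, among others, were on 2 or more arrays there and on at most 1 of any other group. The rise of all these genes is partly fixed by the filter. Of the 29, 26 were above background on all 3 arrays at 100 IU/ml and 1 on 0. The size held in part of the group: 19 genes were at least 2-fold higher on each date under each of the 75th percentile, quantile and normexp settings and in the authors' deposited table, and 17 of these 19 were among the 403, with Ciita and Il15 as exceptions. Without the 1000 IU/ml sample of the third date, 95 genes were at least 2-fold higher on both remaining dates. Of the 403, 54 were so on the first and the second date.

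Batf2 and Ciita were among the 61. Batf2, which acts with Irf1 on interferon targets, was at -1.71, -0.42 and -1.47 at 100 IU/ml and at 0.78, 1.49 and 0.70 at 1000 IU/ml, without overlap. Its step was 2.19 ± 0.77 (4.55-fold, limma adjusted p = 0.314), and it was the 1 gene at least 2-fold higher on each date in all 5 treatments of the values (the 3 scalings, normexp and the authors' deposited table). Ciita, the coactivator of MHC class II genes, was at -6.50, -3.52 and -4.04 and then at -3.32, -1.22 and -2.26, a step of 2.42 ± 0.78. It was above background on 2 of 3 arrays at 100 IU/ml, and its other probe had a smaller step of 1.00. Nlrc5, the coactivator of MHC class I genes, was at -0.50, 1.06 and 0.43 and then at 1.51, 2.09 and 1.33. Its step of 1.32 ± 0.42 was 0.91 on the third date, under 2-fold, and its other probe had a step of 0.50.

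GTPases that attack vacuoles holding pathogens were the list with the largest median step, 1.02. Of 22 members tested 20 were higher on all 3 dates, 5 at least 2-fold on each, and 2 met the plateau rule. Gbp5, a guanylate-binding protein, was at -0.45, 0.95 and 1.29 and then at 2.31, 2.55 and 2.58, without overlap, a step of 1.88 ± 0.55 (3.68-fold, limma adjusted p = 0.282). Gbp4 was at -1.68, 0.45 and 0.71 and then at 0.81, 1.97 and 1.95, a step of 1.75 ± 0.64. Iigp1, an immunity-related GTPase, was at -0.64, 1.35 and 1.32 and then at 2.65, 3.34 and 2.88, a step of 2.28 ± 0.76, and Gm4951 of the same class had 2.10 ± 0.55. Guanylate-binding proteins are close in sequence, so single members are uncertain.

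Rsad2 (viperin), which makes a chain-terminating nucleotide, was at -0.50, 3.57 and 3.21 at 100 IU/ml and at 2.53, 5.09 and 4.69 at 1000 IU/ml. The groups overlapped because the first date was low at both doses, and the steps by date were 3.03, 1.52 and 1.48. Isg15, a ubiquitin-like modifier, was at 6.63, 7.0 and 7.36 and then at 7.04, 7.18 and 7.56, and was undecided. At 100 IU/ml 93.0% of its log2 response at 1000 IU/ml was present. The Ifit and Oas families, which bind and degrade viral RNA, had a median step of 0.81 with 11 of 13 higher on all dates, and 0 of 13 met the plateau rule. Ifit1bl1 was at -1.29, 0.46 and 1.28 and then at 2.47, 2.68 and 2.46, a step of 2.39 ± 0.82 whose smallest date was 1.19 and, with normexp, 0.96. Ifit1 was at 3.11, 5.13 and 5.13 and then at 4.75, 5.46 and 5.60, a step of 0.81 ± 0.42. The list of 56 other antiviral effectors had a median of 0.52, with 47 higher on all dates and 7 on a plateau. Isg15 conjugation genes had a median of 0.44, and all 6 were higher on all dates, while 0 met the plateau rule.

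**Figure D2:**
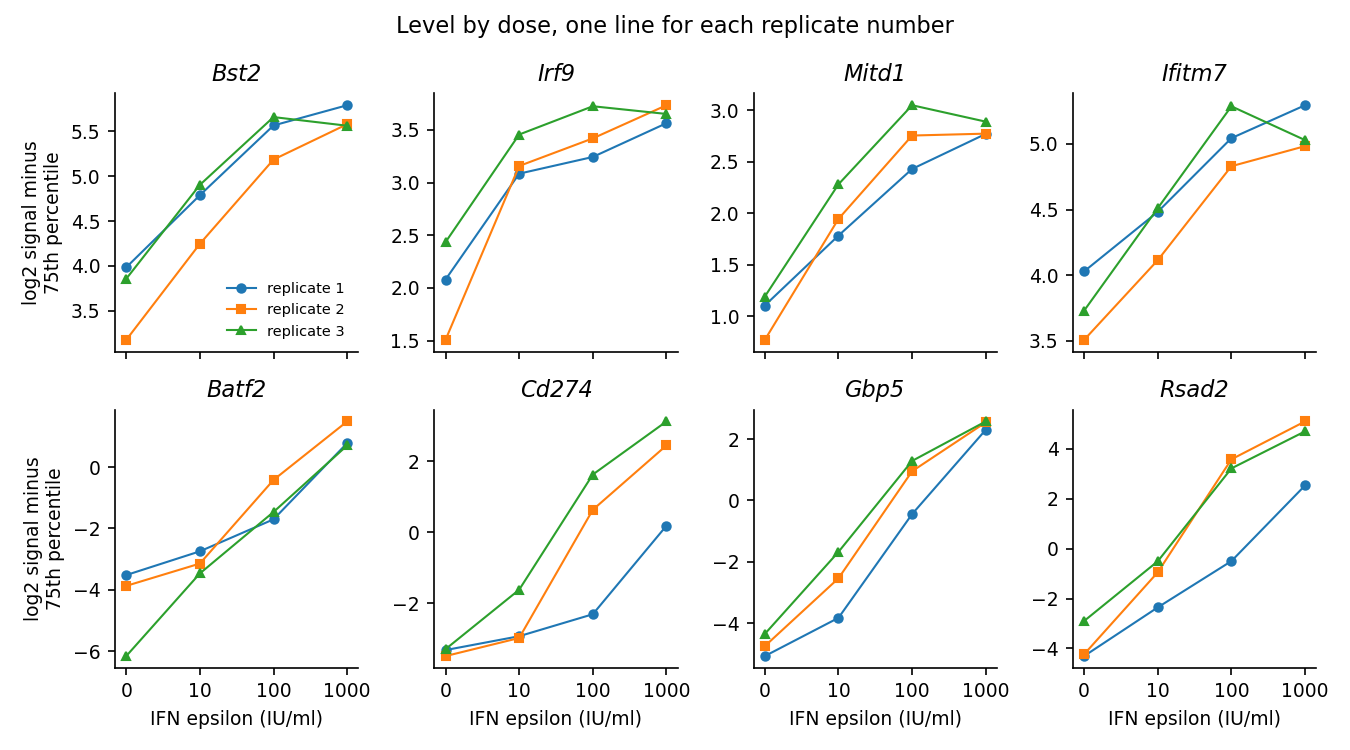
The horizontal axis is the IFN epsilon dose in IU/ml in even spacing, 0 being untreated cells, and the vertical axis log2 signal minus the array's 75th percentile, on its own scale for each gene, with 1 line for each replicate number. Bst2, Irf9, Mitd1 and Ifitm7 (top) have steps from 0.05 to 0.19 between 100 and 1000 IU/ml, while Batf2, Cd274, Gbp5 and Rsad2 (bottom) are higher at 1000 IU/ml on all 3 lines.

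Of 8 receptor and ISGF3 genes 6 met the plateau rule, a share near the 74.8% of all genes, with a median step of 0.16. Ifnar1 was at 1.40, 1.47 and 0.33 and then at 1.39, 1.19 and 0.36, and its step of -0.08 (-0.30 to 0.14) and that of Ifnar2, 0.04 (-0.13 to 0.22), lay within 1.5-fold. Stat2, the transactivating part of ISGF3, was at 3.59, 4.76 and 4.61 and then at 4.53, 5.15 and 4.95, a step of 0.55 ± 0.23, and was undecided. Of 18 negative regulators 13 met the rule (72.2%, likewise near the share of all genes), with a median of 0.05 that was -0.0003 relative to all genes under normexp. Socs1, which blocks the kinases, was outside it at -1.74, -0.73 and 0.13 and then -0.81, 0.96 and 1.32, a step of 1.27 ± 0.50. Usp18, which removes Isg15 and blocks Ifnar2, had 0.45 ± 0.29 after a rise of 5.18 to 100 IU/ml. At that dose 91.8% of its log2 response was present. Interferon-induced regulatory factors with Batf2 and Nlrc5 had a median of 0.56, 6 of 7 higher on all dates, Irf7 at 0.47 ± 0.22 and Irf1 at 0.49 ± 0.28. Sensors of RNA and DNA had a median of 0.53, with 18 of 22 higher on all dates and 5 on a plateau. Zbp1, which senses Z-form nucleic acid, had a step of 1.17 ± 0.39 and Ddx58 (RIG-I), a sensor of viral RNA, 0.34 ± 0.15, and both were undecided.

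Antigen presentation genes were mixed. The peptide generation and loading list had a median of 0.34, with 8 of 14 higher on all dates and 5 on a plateau. Psmb9, an inducible catalytic subunit of the immunoproteasome, was at 1.64, 2.38 and 1.91 and then at 3.26, 3.54 and 2.58, a step of 1.15 ± 0.39 without overlap. Tap1, a chain of the peptide transporter, was at 2.11, 3.05 and 3.32 and then at 3.3, 3.46 and 3.35, a step of 0.54 ± 0.29. The list of MHC class I heavy chains and B2m had a median of 0.32, 10 of 13 higher on all dates, with H2-K1 at 0.40 ± 0.17, and the heavy chains' sequences are too alike to be told apart with certainty. B2m, the light chain, met the plateau rule at 5.56, 5.97 and 5.65 and then 6.02, 6.0 and 6.11. Its interval of 0.06 to 0.57 lies above 0, and 66.2% of its log2 response was present at 100 IU/ml. The 18 subunits of the constitutive proteasome all met the rule, with a median of -0.01. MHC class II genes had a median of 0.33 with 6 of 9 higher on all dates. There Ctss, a protease of that pathway, was above background on 0 of 3 arrays at 100 IU/ml and 2 of 3 at 1000 IU/ml, so its step is at least 1.16-fold. Ctss passed the filter on dim probes only through 1000 IU/ml IFN epsilon, so its rise is partly fixed by the filter.

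Chemokines and surface ligands were mixed. In the cytokine list 12 of 25 were higher on all dates, 4 at least 2-fold on each, 7 met the plateau rule, and the median was 0.29. Cxcl9, which draws T cells through Cxcr3, was at -7.26, -5.82 and -4.99 and then at -3.96, -3.51 and -3.86, a step of 2.25 ± 0.86, and was above background on 1 of 3 arrays at 100 IU/ml and 3 of 3 at 1000 IU/ml. Cxcl9 passed the filter on dim probes only through 1000 IU/ml IFN epsilon, so its rise is partly fixed by the filter. Its smallest step on a date was 1.13 on the main scale and 0.01 after quantile normalization. Cxcl10, a ligand of the same receptor, was at 4.76, 6.29 and 6.80 and then at 6.19, 6.46 and 6.77, a step of 0.53 ± 0.42, so only the first date was clearly higher. Il6, an inflammatory cytokine, was at -4.31, -3.72 and -1.20 and then at -2.78, -1.76 and 0.05, a step of 1.58 ± 0.41 whose smallest date, with normexp, was 0.88. Cd274 (PD-L1), the checkpoint ligand of PD-1, was at -2.30, 0.63 and 1.62 and then at 0.18, 2.44 and 3.12, a step of 1.93 ± 0.82 (3.81-fold, limma adjusted p = 0.383). Its groups overlapped, since the dates differed by more than the doses did. Tnfsf10 (TRAIL), a death ligand, was at -3.70, -1.36 and -0.52 and then at -1.17, 0.18 and 0.54, a step of 1.71 ± 0.62. In the list of checkpoint and surface ligands 11 of 20 were higher on all dates with a median of 0.29, and in the cell death list 14 of 35 with a median of 0.12.

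Cell cycle genes (26 of 28 on a plateau, median -0.05), sterol synthesis (21 of 21, -0.04) and housekeeping genes (15 of 18, -0.03) had medians near that of all genes and held 0 called genes. NF-kB targets (16 of 25, 0.15) and immediate early and stress genes (17 of 26, 0.07) also held 0 called for the step. Of the 25 NF-kB targets, however, 11 were higher on all dates (44.0%, against 17.6% of all genes). At 1000 IU/ml against untreated cells, 5 genes of each list were called higher, where 4.53% of all genes tested were. Egr2, an immediate early factor, was the largest of the last list, at -3.74, -2.58 and -4.77 and then at -2.83, -2.12 and -3.83, a step of 0.77 ± 0.16 (limma adjusted p = 0.175). Interferon genes themselves had 3 members tested and 0 higher on all dates. Under scaling on the median every list median that was below 0.35 turned negative before it was set against all genes, and under 75th percentile, quantile, normexp and deposited values the interferon lists kept their sign.

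On the first and second date alone, without the third and so without the array that stood apart, the GTPases had a median step of 1.18, with 20 of 22 higher on both dates and 10 at least 2-fold on both. The Ifit and Oas families had 0.95, with 13 of 13 higher and 3 at least 2-fold, and the 56 other antiviral effectors 0.64, with 52 higher and 5 at least 2-fold. Regulatory factors had 0.64, Isg15 conjugation 0.59 and sensors 0.58, with 6 of 7, 6 of 6 and 19 of 22 higher. Peptide loading had 0.44, and MHC class I and class II genes each 0.38, with 10 of 14, 11 of 13 and 8 of 9 higher. Checkpoint ligands had 0.33 and chemokines 0.25, with 14 of 20 and 14 of 25 higher. The receptor and ISGF3 genes stayed at 0.16, and NF-kB targets were at 0.18, cell death genes at 0.15 and negative regulators at 0.05. These medians were higher than over all 3 dates in the antiviral and GTPase lists. The share of all genes tested that were higher on both dates was not counted. It cannot be below the 17.6% for 3 dates, so the list counts have no exact background. For comparison, 1 of 28 cell cycle, 1 of 21 sterol synthesis and 1 of 18 housekeeping genes were higher on both dates, and 378 of the 403. Other lists had larger shares, with 9 of 26 immediate early and stress genes and 4 of 14 ovarian surface epithelial markers. Leukocyte markers had 2 of 7, and endothelial, fibroblast and adipocyte markers 6 of 12.

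**Figure D3:**
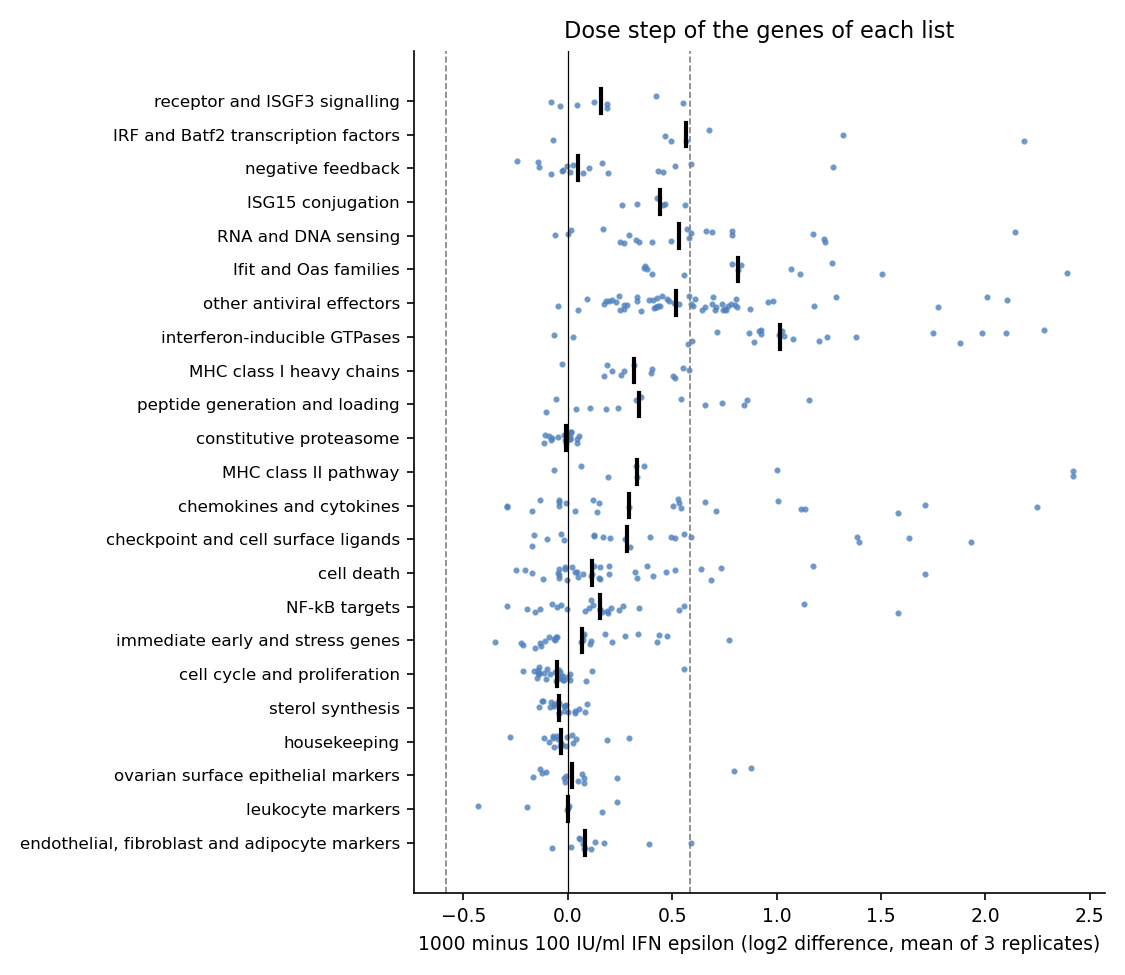
Each point is a gene of a list at its step (1000 minus 100 IU/ml IFN epsilon, log2 difference, mean of 3 replicates), the black bar is the list's median, and dashed lines mark 1.5-fold in both directions. Interferon-inducible GTPases have the largest median (1.02), while constitutive proteasome (-0.01) and sterol synthesis (-0.04) cluster at 0; scaling on the median lowers all lists together.

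The step was larger with the size of a gene's interferon response. Among the 403 genes, the 38 with an IFN beta response under 0.5 on the log2 scale had a median step of 0.19, and the median was 0.31 for the 84 from 0.5 to 1, 0.51 for the 136 from 1 to 2, 0.70 for the 67 from 2 to 3 and 0.97 for the 78 over 3. The plateau rule was met by 35, 38, 6, 1 and 0 genes of these bins, where the median half-width of the interval was 0.21, 0.30, 0.50, 0.72 and 0.85. The earlier step, from 10 to 100 IU/ml, shares the 100 IU/ml samples and had medians of 0.15, 0.30, 0.70, 1.19 and 1.91 in the same bins. Both sets of medians are given side by side and were not compared.

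**Figure D4:**
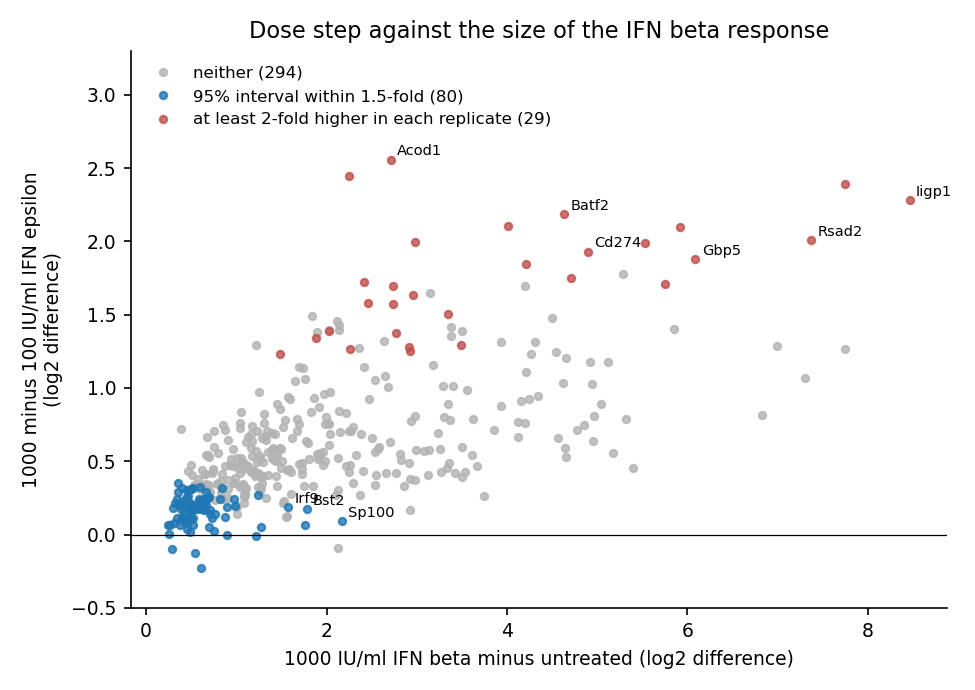
The horizontal axis is the log2 difference of 1000 IU/ml IFN beta minus untreated cells and the vertical axis the step from 100 to 1000 IU/ml IFN epsilon, for the 403 genes called higher for IFN beta. Blue points (80) have a 95% interval within 1.5-fold and lie mostly at responses under 1, red points (29) were at least 2-fold higher on each date, and grey points (294) were neither.

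Set against untreated cells, limma called 213 genes higher (1.48%) and 21 lower at 100 IU/ml IFN epsilon, and 653 higher (4.53%) and 517 lower at 1000 IU/ml. With arrays scaled on the median the latter were 291 and 47, and without the date block 323 and 10. Without the second date the totals in both directions were 136 at 1000 IU/ml and 59 at 100 IU/ml, and without the first date 244 and 114. Of the 403 genes, 207 were called at 100 IU/ml and 389 at 1000 IU/ml. These counts share samples with the step, and a larger count is not itself a measure of the step. For the 389, the share of the log2 response at 1000 IU/ml that was present at 100 IU/ml had a median of 55.0%, 72.1% and 83.2% on the 3 dates, and the mean over dates had quartiles of 57.1% and 79.8%. By list, the median share was 86.1% in the Ifit and Oas families, 85.4% in Isg15 conjugation, 77.3% in the GTPases, 69.8% in peptide generation and loading and 58.4% in checkpoint and surface ligands, and these differences between lists were not tested.

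The direct tests of a change in slope and of a difference from IFN beta called no gene. For the step from 100 to 1000 minus the step from 10 to 100 IU/ml, limma called 0 of 14424 genes (0%), with 903 at an unadjusted p under 0.05. For the IFN epsilon step minus the IFN beta step between the same doses it called 0 (0%), with 717 at an unadjusted p under 0.05, and IFN beta at 100 IU/ml had 2 samples. Of the 717, 466 were higher and 251 lower. Median 95% intervals, unadjusted and over all genes, reached 0.42 and 0.36 to either side. A call needed more than that, since the p was adjusted over all genes. Differences from IFN beta of -4.31 ± 1.15 in Iigp1 (limma adjusted p = 0.568) and -2.76 ± 0.84 in Gbp5 (limma adjusted p = 0.719) were not called. Large differences could thus have been missed.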

How the data were processed

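RNA of ID8 cells was measured on single-colour Agilent arrays, 24 arrays on 3 slides. The deposited scanner files hold a processed intensity per spot, background-subtracted and with no scaling between arrays. Their headers name Feature Extraction 11.0.1.1 from Agilent. A second deposited table holds the authors' log2 values, for which R 3.6.1 and limma 3.42.0 appear in the submitters' processing notes without steps. Its columns correlated at 0.989 to 0.995 with log2 scanner intensity, and its constant and background correction stay unknown.

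For each array, log2 processed intensity was centred on the 75th percentile, leaving out control spots and outlier spots (79 to 280 per array, with 0 saturated). Genes were named through RefSeq accessions of GRCm38.p6 (32994 of 56605 probes, 22911 genes), and 516 of 518 list symbols matched. Probes had to be well above background in 2 or more samples of some group, and the brightest probe stood for its gene. The 2 untreated arrays of a replicate were averaged, and 2 arrays that the submitters marked as excluded were left out, which gave 19 samples in 7 groups.

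The test was limma 3.58.1 (lmFit and eBayes, R 4.3.3) over all groups with the replicate number as a block and 10 residual degrees of freedom. Replicate numbers mark dates in the series design. Deviations of same-numbered 100 and 1000 IU/ml samples from their group means correlated at 0.48, 0.23 and 0.59. A bound for a dim gene sets the 1000 IU/ml mean against the lowest signal well above background. Members, lists, the naming rule and the tests were chosen with earlier results of these data known. Genes named are called genes, a panel, the 10 plateau genes with the largest IFN beta response, and, where under 5 were called, the 5 largest that went one way on all 3 dates at an unadjusted p under 0.05. The genes 2-fold higher on each date, and the split by size of IFN beta response, were chosen after their values were seen. The alternative normexp background correction (offset 50) used the median signal of each spot, in place of a mean signal. Scripts were tested on simulated data. Figures were drawn with Python 3.11.15 and matplotlib 3.10.9. The number of arrays limits the precision.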

Additional observations from a re-analysis of the deposited data

Results flagged for a closer look

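In 4 of the named genes the IFN epsilon step went the same way on all 3 dates and the IFN beta step, from 100 to 1000 IU/ml, the other way on both of its dates. For Egr2 the steps of IFN epsilon were 0.92, 0.47 and 0.93 and those of IFN beta -0.18 and -0.19, and the difference was 1.16 ± 0.24 (limma adjusted p = 0.517). Lcn2, an iron-binding acute phase protein, had a difference of 0.42 ± 0.20 (adjusted p = 0.988), and its IFN beta steps were -0.10 and -0.17. For Prl3b1, a placental lactogen, the difference was -1.62 ± 0.58 (limma adjusted p = 0.925). Tas2r140, a taste receptor with 1 of 3 arrays above background at 1000 IU/ml IFN epsilon, had a difference of 3.66 ± 0.76 (adjusted p = 0.517). In the limma test of the difference 0 of the 4 were called, and 717 of all genes had an unadjusted p under 0.05.

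Among 10036 tested probes that matched no RefSeq gene, 1 was called for the step by limma, with 2.30 ± 0.21 (adjusted p = 0.00487), and 933 had an unadjusted p under 0.05. The called probe was at -7.83, -7.70 and -7.34 at 100 IU/ml and at -5.08, -5.39 and -5.50 at 1000 IU/ml, and was well above background on 0 arrays of either group.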

How the results depend on the processing

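The number of genes called for IFN beta changed with the fit, so each plateau count is given of that number. It was 80 of 403 in the main fit. With the replicate block removed (no replicate block), limma called 0 genes for the step, 333 at 1000 IU/ml and 152 at 100 IU/ml. The plateau count was then 15 of 228. In fits to only the groups compared, with the block, these counts were 0, 375, 127 and 1 of 14. With all 24 arrays 41 genes were called at 100 IU/ml, and 8 of 117 met the plateau rule. With arrays scaled on the median, 28 genes were called for the step, 4 for its change, 5 against IFN beta and 338 at 1000 IU/ml. There 0 of 245 met the plateau rule, and 16 genes were 2-fold higher on each date. For the step, quantile normalization and the deposited table called 1 each, normexp 20, no filter on dim probes 0, slide with replicate block 5 and all probes 1, where 75th percentile scaling called 3. The 61 genes 2-fold higher on each date became 39 under quantile normalization, 21 under normexp, 26 in the deposited table and 96 with no filter. No filter gave 703 genes at 1000 IU/ml and a plateau count of 36 of 291. Among the 403 the plateau count was 208 at a width of 2-fold and 17 at a width narrower than 1.5-fold. It was 20 of 228 when IFN beta genes were called without a block.

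Leaving out a sample or a date gave 0 to 48 genes called for the step, 0 to 6 for its change, 0 to 10 against IFN beta, 136 to 1084 at 1000 IU/ml and 59 to 247 at 100 IU/ml. It gave 10 to 77 plateau genes, among 101 to 406 genes called for IFN beta in these fits. The genes 2-fold higher on each date left were 89 to 191, and the median step of the IFN beta genes was 0.44 to 0.70. The highest counts for the step (48) and the highest median came without the third date. Steps were counted for each pair of a named gene and a setting. Of these pairs 0 reversed a called direction, and 23 gained a call. A call was lost in 42 pairs, all of Angptl8, Slc16a9 and Tex19.1. The array signal over background limits the dim genes most, and the cause of these changes was not tested.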

Other observations

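Metabolic and surface genes outside the lists were also at least 2-fold higher on each date. Acod1, which makes itaconate from a citrate cycle intermediate, was at -7.79, -4.20 and -4.04 at 100 IU/ml and at -3.88, -2.47 and -2.02 at 1000 IU/ml, a step of 2.56 ± 0.56 that limma did not call (adjusted p = 0.185), and was above background on 2 of 3 arrays at 100 IU/ml. Ccrl2, a chemerin-binding receptor, was at -3.59, -1.22 and -1.17 and then at -0.78, 0.65 and 0.45, a step of 2.10 ± 0.65. Clec2d, a lectin that engages receptors of natural killer cells, was at -2.40, -0.69 and -0.26 and then at -1.16, 0.52 and 1.1, a step of 1.28 ± 0.50. Zfp296, a zinc finger gene, was at -1.40, -0.80 and -0.34 and then at -0.15, 0.52 and 0.89, a step of 1.27 ± 0.41. Il15, from the cytokine list, which sustains natural killer and memory T cells, was at -1.41, -0.21 and -0.17 and then at -0.20, 0.93 and 0.89, with steps of 1.21, 1.14 and 1.06.

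The 2 largest mean steps came mostly from 1 array. Gm30687 was at -7.96, 9.28 and -4.20 at 1000 IU/ml on the 3 dates, and Tmem95 at -4.98, 9.41 and -3.12, so the second date was far above the others in both.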
